A study of Mus musculus with 6 samples.

Results

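The genes described here carry, make and sense vitamin A derivatives in UVB-irradiated mouse skin. They are 9 genes (Crabp1, Crabp2, Rbp4, Stra6, Dhrs9, Aldh1a1, Aldh1a2, Aldh1a3 and Rarg) of the 19938 genes that have a transcript cluster of their own on the array, and each was measured by 1 transcript cluster. They were chosen by their role in the pathway and with the difference between Cbl-b-/- and WT skin on these same arrays in view, in particular that of Crabp1. The differences between the genotypes are therefore given for these 9 genes as a description, with no p-value and with no result read from a test. Dorsal skin was taken from 3 Cbl-b-/- and 3 WT mice 24 h after exposure to a single UVB dose of 80 mJ/cm2, and RNA of each mouse was hybridized to an Affymetrix Mouse Gene 1.0 ST array. All 6 mice had been irradiated, and their sex and age are not given in the sources used here. The study describes them as BL6 animals whose backs were shaved the day before. Cbl-b-/- mice lack Cbl-b, an E3 ubiquitin ligase that restrains signaling from the T-cell receptor. Whether the Cbl-b-/- and WT mice were littermates is not given in the sources used here, and skin before irradiation was not analysed here.

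Vitamin A travels in blood as retinol bound to RBP4 and enters cells through the membrane receptor STRA6. Inside the cell, dehydrogenases of the short-chain family, such as DHRS9, oxidize retinol to retinaldehyde, and the ALDH1A enzymes oxidize retinaldehyde irreversibly to retinoic acid. Retinoic acid is held by the cellular binding proteins CRABP1 and CRABP2 and acts through nuclear receptors, of which RAR-gamma is the main retinoic acid receptor type of the epidermis. In skin this pathway is known for its control of keratinocyte differentiation, sebaceous glands and hair growth.

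The array values are log2 expression after normalization between arrays by the authors, and a difference of 1 on this scale is a 2-fold difference. Cblb, the targeted gene, stood at 8.61, 8.69 and 8.61 in the Cbl-b-/- arrays and at 9.90, 9.66 and 9.72 in the WT arrays, a log2 difference of -1.12 (standard error 0.09), and the genotypes did not overlap. Which exons the deletion removes is not given in the sources used here, so whether this transcript cluster lies within it is not known. Of 15 listed genes of the interfollicular epidermis 13 were measured, all of them above a background level of 5.43, which is the 95th percentile of the mean values of 1035 olfactory receptor transcript clusters. The mean of the epidermal list was 10.38 to 10.86 across the arrays, and that of 12 fibroblast genes was 9.41 to 9.69. Particular arrays stood apart. In WT replicate 3 the mean of 23 measured genes of the hair shaft and inner root sheath was 9.27. It was 6.06, 6.86 and 7.27 in Cbl-b-/- replicates 1 to 3, and 5.88 and 5.99 in WT replicates 1 and 2. In Cbl-b-/- replicate 2 the mean of 11 adipocyte genes was the lowest of all arrays (8.18, against 8.62 to 9.70 in the others), and the mean of 8 neutrophil genes was the highest (8.87, against 6.76 to 7.89). In whole skin, fewer cells of a type cannot be told apart from less RNA per cell.

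Crabp1, the binding protein that holds retinoic acid in the cytosol, was higher in Cbl-b-/- skin. Its log2 level was 10.38, 11.02 and 10.12 in Cbl-b-/- replicates 1 to 3 and 9.87, 9.68 and 9.90 in WT replicates 1 to 3. The genotypes did not overlap, and the lowest Cbl-b-/- array lay 0.22 above the highest WT array. The WT arrays lay close together (SD 0.12), whereas the Cbl-b-/- arrays were spread (SD 0.46), with replicate 2 far above the other two. The means were 10.50 and 9.81, which gives a log2 difference of 0.69 (standard error 0.23), or 1.61-fold. Without Cbl-b-/- replicate 2 the log2 difference was 0.43, and without any other array it was between 0.62 and 0.88. The mean of 18 measured dermal papilla genes was 6.38 to 6.47 in Cbl-b-/- and 6.12 to 6.83 in WT skin, and it was highest in WT replicate 3, where Crabp1 was at 9.90. The list was mixed. Inhba, Alpl, Fgf7, Fgf10 and Rspo4 were highest in Cbl-b-/- replicate 2, as Crabp1 was. Corin, Wif1, Hhip, Notum, Alx4, Bmp4, Nrg2, Ndp, Lepr and Crym were highest in WT replicate 3. Sox2, Sox18 and Rspo3, the rest of the list, were highest in other arrays. The part of dermal papilla cells in the Crabp1 difference was not tested.

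The other cytosolic binding protein, Crabp2, which hands retinoic acid to its receptors in differentiating keratinocytes, did not follow Crabp1. It stood at 9.17, 9.95 and 9.01 in Cbl-b-/- and 9.38, 9.52 and 8.85 in WT skin, so that the genotypes overlapped widely. The log2 difference was 0.13 (standard error 0.29). Its sign turned to -0.16 without Cbl-b-/- replicate 2, the array with the highest Crabp2, and to -0.07 without WT replicate 3, the array with the lowest.

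Rarg, the gene of RAR-gamma, showed the smallest spread within genotypes of the 9 genes (pooled SD 0.09). Its log2 level was 9.36, 9.22 and 9.48 in Cbl-b-/- skin and 9.05, 9.06 and 9.09 in WT skin. All Cbl-b-/- arrays were above all WT arrays, with a gap of 0.13 between them. The log2 difference was 0.29 (standard error 0.09), or 1.22-fold, and stayed between 0.22 and 0.35 whichever array was left out. The difference in Rarg was thus smaller than the study's 1.5-fold threshold.

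**Figure D1:**
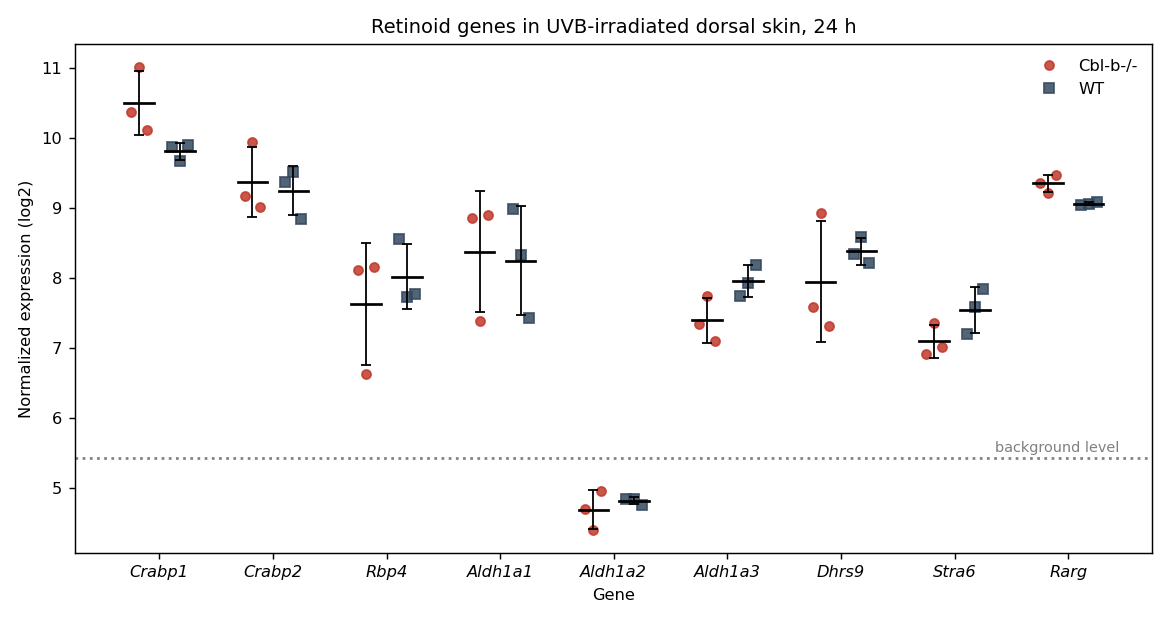
Normalized expression (log2, vertical axis) of the 9 retinoid genes (horizontal axis) for each array, with circles for Cbl-b-/- and squares for WT. The bar and its whiskers give the mean and SD of the 3 arrays of a genotype, and the dotted line is the background level of 5.43; Crabp1 and Rarg lie higher in all Cbl-b-/- arrays, Aldh1a3 lies higher in all WT arrays by 0.004 (not after cyclic loess), and Aldh1a2 lies under the background level.

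The bases just before the start of Crabp1 and Rarg are shown because these are the genes whose Cbl-b-/- arrays all lay above the WT arrays. The sequences are the 250 bases before the RefSeq start (GRCm38.p6, 5' to 3' on the gene's strand), at chr9:54764498-54764747 on the plus strand for Crabp1 and chr15:102257523-102257772 on the minus strand for the upstream of the listed Rarg starts. Capitals mark GC boxes, the letters GGGCGG or their reverse complement CCGCCC, which are the binding motif of Sp1-type factors.
Crabp1: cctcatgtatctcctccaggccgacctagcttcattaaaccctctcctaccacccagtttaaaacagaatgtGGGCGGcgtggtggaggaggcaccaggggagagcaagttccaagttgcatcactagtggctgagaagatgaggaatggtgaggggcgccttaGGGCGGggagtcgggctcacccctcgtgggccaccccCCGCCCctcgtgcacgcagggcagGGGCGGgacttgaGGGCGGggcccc
Rarg: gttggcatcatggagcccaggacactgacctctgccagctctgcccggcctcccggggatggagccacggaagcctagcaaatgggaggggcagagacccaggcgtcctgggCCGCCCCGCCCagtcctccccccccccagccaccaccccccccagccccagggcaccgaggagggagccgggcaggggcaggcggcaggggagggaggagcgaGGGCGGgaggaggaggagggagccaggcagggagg
The Crabp1 window holds 5 GC boxes and 63.6% G and C, and the Rarg window holds 3 GC boxes, of which 2 overlap, and 74.4% G and C. The window before the downstream Rarg start holds 0 GC boxes and 52.4% G and C. Of 27025 genes with such a window, 32.9% hold at least 1 GC box, 8.40% at least 3 and 1.99% at least 5, and the median window has 52.0% G and C. These and the following shares of genes use 1 window a gene, the first listed, whereas all listed windows of the retinoid genes were searched. The hexamers that retinoic acid receptors bind (AGGTCA with its variants GGGTCA together with AGTTCA as well as GGTTCA, on either strand) occur in the windows of 38.4% of genes. The Rarg window shown holds 1 such hexamer and the Crabp1 window 0. Direct repeats of these hexamers with 1, 2 or 5 bases between them, the arrangement in known retinoic acid response elements, occur in 0.159%, 0.178% and 0.0888% of genes and in 0 of the 13 windows of the 7 retinoid genes found in the table. These matches describe letters in the window only.

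Rbp4 and Stra6, of retinol carriage and uptake, had log2 differences below 0 with all arrays. Rbp4, the plasma carrier of retinol, which liver and fat make, stood at 8.11, 6.63 and 8.16 in Cbl-b-/- and 8.56, 7.74 and 7.77 in WT skin. The genotypes overlapped, and Cbl-b-/- replicate 2 was more than 1 log2 unit under every other array. The log2 difference was -0.39 (standard error 0.45), and it turned to 0.11 without that array. The adipocyte list had its lowest mean in the same array (8.18) and ran from 8.18 to 9.70 in Cbl-b-/- and from 8.62 to 9.32 in WT skin, with 11 of 12 genes measured and all 11 above background. The skeletal muscle list was lowest in that array too (9.51, against 9.92 to 10.78 in the others). So was the sebaceous gland list (8.47, against 8.68 to 9.13 in the others). The part of fat, muscle and sebaceous glands in the level of Rbp4 was not tested. Stra6, the receptor that takes up retinol from RBP4 and is itself induced by retinoic acid, stood at 6.92, 7.36 and 7.03 in Cbl-b-/- and 7.21, 7.59 and 7.85 in WT skin. The genotypes overlapped through Cbl-b-/- replicate 2 and WT replicate 1 alone. The log2 difference was -0.45 (standard error 0.19), or 1.36-fold lower, and was -0.62 to -0.30 when each array was left out, with the smallest size without WT replicate 3, where the hair shaft list had its highest mean (9.27, against 5.88 to 7.27 in the others). The mean of 7 melanocyte and Schwann cell genes (8.17, against 6.17 to 6.58) and that of the dermal papilla list (6.83) were highest in WT replicate 3 too. In WT replicate 2 Stra6 was at 7.59 and the hair shaft mean at 5.99. In Cbl-b-/- replicate 3 they were at 7.03 and 7.27. The part of hair follicles or melanocytes in the level of Stra6 was not tested.

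Among the enzymes that make retinoic acid, Aldh1a3 had the largest log2 difference in size, in the direction opposite to Crabp1. Aldh1a3, a retinaldehyde dehydrogenase of epithelia, stood at 7.35, 7.74 and 7.10 in Cbl-b-/- and 7.75, 7.94 and 8.19 in WT skin. The genotypes did not overlap, but the gap between Cbl-b-/- replicate 2 and WT replicate 1 was only 0.004, and the genotypes overlapped after cyclic loess normalization. The log2 difference was -0.56 (standard error 0.19), or 1.47-fold lower, and it was -0.73 without Cbl-b-/- replicate 2 and -0.41 without Cbl-b-/- replicate 3. Aldh1a1, the related enzyme that is abundant in many tissues, varied most. It stood at 8.86, 7.39 and 8.90 in Cbl-b-/- and 9.00, 8.33 and 7.43 in WT skin. The lowest array of each genotype (Cbl-b-/- replicate 2 and WT replicate 3) was also the lowest of its genotype in the adipocyte list and in the skeletal muscle list (9.51 and 9.92, against 10.53 to 10.78 in the other arrays, with all 12 genes above background). Those arrays were also the lowest of their genotypes in the epidermal (10.68 and 10.38) and sebaceous gland (8.47 and 8.68) lists. So they were in the T cell (5.56 and 5.56) and blood endothelium (7.85 and 7.38) lists. The part of fat, muscle or any of these other cell types in the level of Aldh1a1 was not tested. The log2 difference of Aldh1a1 was 0.13 (standard error 0.53), and it ran from -0.28 without WT replicate 3 to 0.63 without Cbl-b-/- replicate 2.

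Aldh1a2, the retinaldehyde dehydrogenase that acts mainly in the embryo, was not above background in either genotype, with 4.41 to 4.97 in Cbl-b-/- and 4.77 to 4.85 in WT skin, and no fold is given for it. Its measured log2 difference was -0.13 (standard error 0.14) and came to 0.01 without Cbl-b-/- replicate 2. Dhrs9, a dehydrogenase that oxidizes retinol, was split within the Cbl-b-/- group. It stood at 7.60, 8.94 and 7.32 in Cbl-b-/- skin and at 8.35, 8.59 and 8.21 in WT skin. Cbl-b-/- replicates 1 and 3 were thus below every WT array and replicate 2 above every one. The log2 difference was -0.43 (standard error 0.41), -0.93 without Cbl-b-/- replicate 2 and -0.12 without Cbl-b-/- replicate 3. The mean of the neutrophil list, with 8 of 8 genes measured and 7 above background, was likewise highest in Cbl-b-/- replicate 2 (8.87) and lowest in Cbl-b-/- replicates 1 and 3 (7.17 and 6.76), with 7.56 to 7.89 in WT skin. S100a8, S100a9, Cxcr2, Csf3r and Ly6g showed this order. In Mmp9 Cbl-b-/- replicate 1, and in Retnlg Cbl-b-/- replicate 3, lay above WT replicate 2. Camp, under background, was highest in WT replicate 3. The part of neutrophils in the level of Dhrs9 was not tested.

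**Figure D2:**
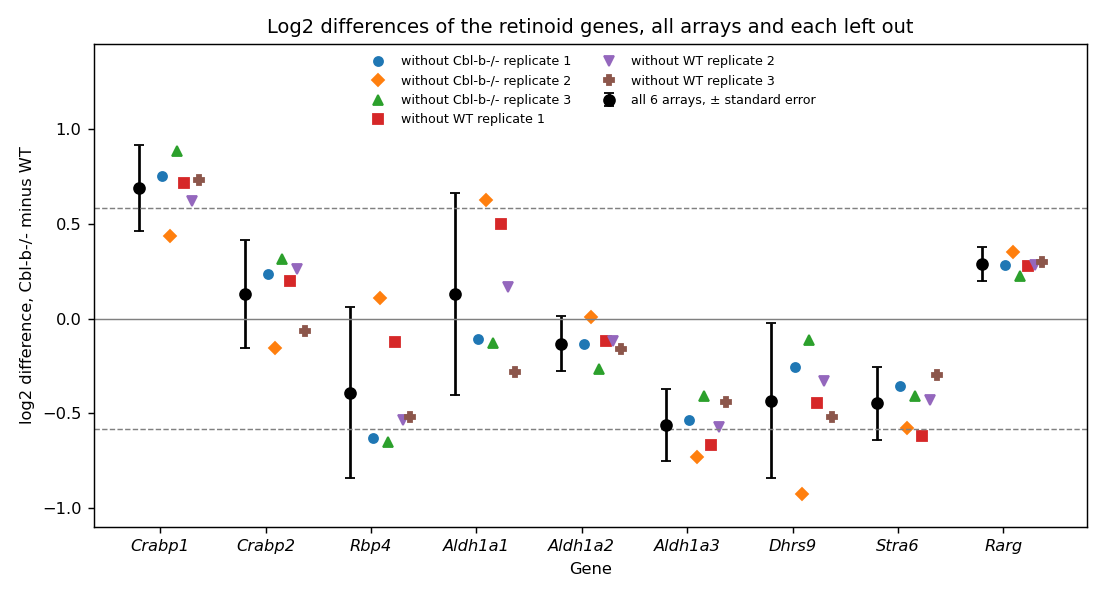
Log2 difference (vertical axis, Cbl-b-/- minus WT) of the 9 retinoid genes (horizontal axis). Black points are estimates from all 6 arrays with the standard error, coloured symbols are estimates with a single array left out, and dashed lines mark 1.5-fold. Crabp1 and Rarg stay above 0, Aldh1a3, Dhrs9 and Stra6 stay below 0, and the other 4 genes cross 0.

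Over the 9 genes, 4 log2 differences were above 0 and 5 below, with a median of -0.13. The median over all transcript clusters with 1 gene symbol was 0.03. The median size of the difference, whatever its sign, was 0.39 over the 9 genes and 0.09 over all transcript clusters with 1 gene symbol. These medians are not matched for level: 8 of the 9 genes were above background, and the transcript clusters include many under it. The genes were chosen with this contrast in view, so these medians and the following counts are a description. Every Cbl-b-/- array lay above every WT array in 2 of the 9 (Crabp1 and Rarg), where 9.5% of all transcript clusters with 1 gene symbol did so. Every Cbl-b-/- array lay below every WT array in 1 of the 9 (Aldh1a3), where 4.11% did so. By the study's thresholds (an unadjusted p under 0.05 in limma and at least a 1.5-fold difference), 1 of the 9, Crabp1, counted as higher and 0 as lower, beside 0.216% and 0.28% of the 21789 transcript clusters with 1 gene symbol and 1.22% of all 35556 in either direction. Crabp1 did not meet the thresholds in the per-row analysis of variance that the methods name, without Cbl-b-/- replicate 2 or without WT replicate 2. Without Cbl-b-/- replicate 2, Aldh1a3 and Dhrs9 met them as lower, where 790 of all 35556 transcript clusters met them in either direction. Without WT replicate 1, Aldh1a3 and Stra6 did so beside Crabp1, where 553 of all transcript clusters met them. Nothing is read from these counts.

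Cbl-b-/- replicate 2 was the highest or the lowest of the 6 arrays in 6 of the 9 genes: highest in Crabp1, Crabp2 and Dhrs9, lowest in Rbp4, Aldh1a1 and Aldh1a2. Among all transcript clusters with 1 gene symbol, this array was at an extreme in 34.2%. In the remaining members the extremes lay with other arrays, and Aldh1a3 and Stra6 were both highest in WT replicate 3. Aldh1a3 and Stra6 were also the pair with the most similar pattern, with a Pearson correlation of 0.92 over the 6 arrays, and Rarg ran opposite to Aldh1a3 (-0.90). Rbp4 and Aldh1a1 correlated at 0.82. All these values come from the same 6 arrays and describe them alone.

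**Figure D3:**
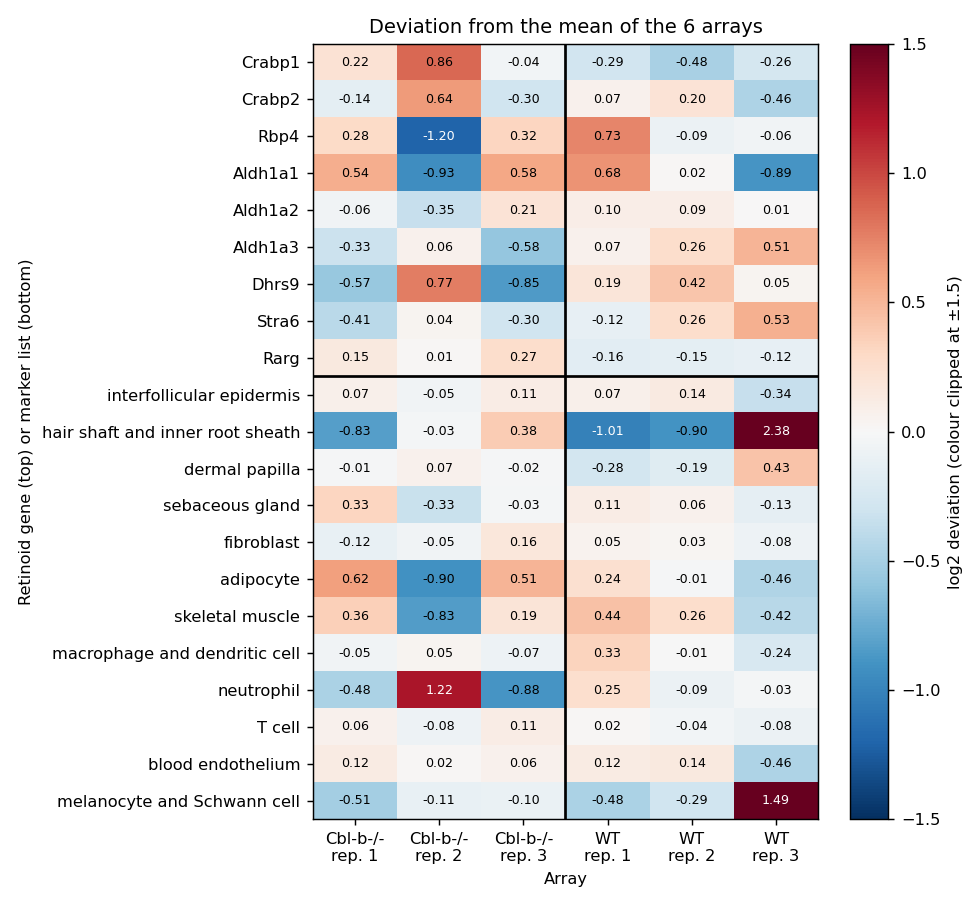
Deviation of each array (columns) from the mean of the 6 arrays on the log2 scale, for the 9 retinoid genes (top rows) and the mean of each marker list (bottom rows). Red is higher and blue lower, with colours clipped at 1.5, and numbers give the deviation. Cbl-b-/- replicate 2 shows Crabp1 at 0.86, Dhrs9 at 0.77, Rbp4 at -1.20 and Aldh1a1 at -0.93, beside adipocyte genes at -0.90 and neutrophil genes at 1.22, and WT replicate 3 shows hair shaft genes at 2.38.

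By a Pearson correlation over the 6 arrays, the genes most like Crabp1 among 14165 genes above background were Syndig1 (0.998), Tm4sf19 (0.983), Pold4 (0.981), Adm2 (0.980) and Icos (0.979). Each was highest in Cbl-b-/- replicate 2, as Crabp1 was, and each had all Cbl-b-/- arrays above all WT arrays. Both traits largely follow from choosing these genes by their correlation with Crabp1 over the same arrays. Of all transcript clusters with 1 gene symbol, 9.5% had all Cbl-b-/- arrays above all WT arrays. Syndig1, which encodes a synaptic membrane protein, stood at 5.65, 5.98 and 5.49 in Cbl-b-/- and 5.38, 5.25 and 5.41 in WT skin. Tm4sf19, a tetraspanin-like membrane protein gene, stood at 6.77, 7.34 and 6.57 in Cbl-b-/- and 6.23, 6.08 and 6.10 in WT skin, a log2 difference of 0.75. Icos, the inducible T-cell costimulator, had a log2 difference of 0.40. Syndig1 had a WT mean under the background level.

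The other genes of retinoid handling and response were compared between the genotypes with limma, which pools the spread over all transcript clusters. Of 102 listed symbols, 93 were measured by a transcript cluster of their own, and 79 of these were above background in at least 1 genotype. In limma 0 of the 93 met the study's thresholds and 0 passed at an adjusted p under 0.05. At an unadjusted p under 0.05, 5 of the 93 passed, a share of 5.38% beside 5.35% of all transcript clusters with 1 gene symbol. The per-row analysis of variance that the methods name gave 0 at the study's thresholds and 4 at an unadjusted p under 0.05. Log2 differences were above 0 in 60 genes and below 0 in 33, with a median of 0.06, where 58.4% of all transcript clusters with 1 gene symbol were above 0. Genotypes did not overlap in 4 genes with higher Cbl-b-/- arrays (4.30%, beside 9.5% above) and in 3 with lower ones (3.23%, beside 4.11%).

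The 5 genes at an unadjusted p under 0.05 were named after their values were seen. They are Rbp7, a retinol-binding protein of fat and endothelium (log2 difference 0.49), Stra6l, the RBP4 receptor of liver (0.24), the retinol dehydrogenase gene Rdh14 (-0.19), the homeobox gene Hoxb4 (-0.24) and the innate receptor gene Tlr2 (-0.31). The largest differences in size were less even across arrays. Lrat, which esterifies retinol for storage, stood at 6.16, 7.24 and 6.60 in Cbl-b-/- and 6.71, 6.70 and 8.70 in WT skin. The log2 difference of Lrat was -0.70 (standard error 0.58, adjusted p = 0.824 from limma) and came to -0.04 without WT replicate 3. In that array the hair shaft list, the dermal papilla list and the melanocyte and Schwann cell list were all highest. Adh1, an alcohol dehydrogenase that also oxidizes retinol, stood at 9.43, 8.96 and 10.08 in Cbl-b-/- and 9.72, 8.76 and 8.18 in WT skin. Its log2 difference was 0.61 (standard error 0.44, adjusted p = 0.805 from limma), and among the alternatives run it met the study's thresholds only without WT replicate 1. Cd36, a scavenger receptor that takes up fatty acids and carotenoids, had a log2 difference of 0.58 (standard error 0.31, adjusted p = 0.762 from limma).

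Receptors and the enzymes that clear retinoic acid showed small differences. All 6 measured receptor genes were above 0 (log2 differences of 0.01 to 0.22), but limma called 0 of them at the thresholds or by the unadjusted p. Rara stood at 0.01, Rarb, itself a target of retinoic acid, at 0.11, Rxra, the main partner of the receptors in epidermis, at 0.21, Rxrb at 0.08, Rxrg at 0.13 and Ppard, a receptor of fatty acids in keratinocytes, at 0.22. Rara, Rarb and Rxrg each turned below 0 when certain single arrays were left out, and Rarb was under the background level in WT skin. Cyp26b1, the hydroxylase that inactivates retinoic acid in skin, averaged 8.56 in Cbl-b-/- and 8.58 in WT skin (standard error of the difference 0.26). Cyp26a1, its strongly induced relative, was not above background, with 4.51 to 4.65 in Cbl-b-/- and 4.33 to 4.59 in WT skin. Among the dehydrogenases, Rdh10, which makes retinaldehyde, stood at -0.21 (standard error 0.31) and Dhrs3, which reduces it back to retinol and is induced by retinoic acid, at 0.34 (standard error 0.20). Among 25 measured genes known to respond to retinoic acid, log2 differences ran from -0.40 (Rarres1) to 0.33 (Egr1), with a median of 0.09, and among 10 receptor cofactors from -0.23 (Tbl1xr1) to 0.09 (Crebbp). Egr1 and Crebbp, the upper ends of these ranges, were named after their values were seen.

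**Figure D4:**
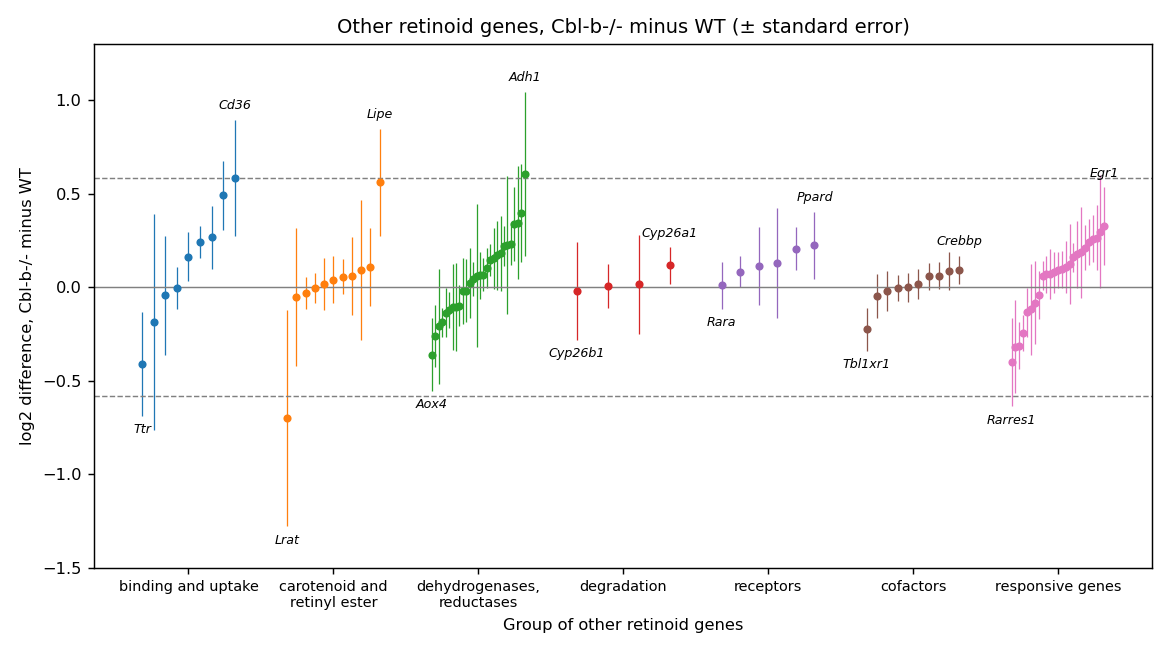
Log2 difference (vertical axis, Cbl-b-/- minus WT) of 93 other retinoid genes, ordered by size within 7 groups (horizontal axis). Points are limma estimates with the standard error, dashed lines mark 1.5-fold, and the lowest and highest gene of each group are named. Lrat (-0.70) and Adh1 (0.61) lie outside the dashed lines, and Cd36 (0.58) lies on the upper line.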

How the data were processed

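The 6 arrays, 1 per mouse and 3 per genotype, were grouped by the submitters' genotype label. Expression is on the log2 scale, as deposited by the authors, who ran RMA (background correction, quantile normalization and median polish of the probes) in Partek Genomics Suite. Quantile normalization gives all arrays the same distribution, so a shift of most genes together would not be seen, and background makes the differences of dim genes too small. The submitters' processing notes give Partek 6.5. Median values of the arrays were 6.30 to 6.34, and correlations between arrays were 0.980 to 0.993.

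Gene symbols came from the platform annotation: 21789 transcript clusters carry 1 symbol, 1621 several and 12146 none. The row with the highest mean stood for a gene. Genotypes were compared as Cbl-b-/- minus WT with limma 3.58.1 in R 4.3.3 (lmFit and eBayes, all 35556 rows, Benjamini-Hochberg adjustment), tested first on simulated data. Precision is limited by the number of arrays: with 3 against 3, no two-sided exact permutation p can be under 0.10. The study describes the replicates as biological. The 9 genes, the other lists and the tests were chosen with earlier results of these data known.

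Genes named from the other lists are those past the thresholds, the largest difference of each list, genes with no overlap and at least 1.25-fold (none), and receptors, Cyp26a1, Cyp26b1, Lrat, Rdh10 and Dhrs3. A further gene of this rule is not reported here. The 5 genes most correlated with Crabp1 were named. Alternatives were the per-row analysis of variance, a trended robust prior, cyclic loess, median centring, a filter at the background level, the replicate number as a block and each array left out. Promoter sequences are RefSeq's (GRCm38.p6), with 7 of the 9 genes matched.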

Additional observations from a re-analysis of the deposited data

How the results depend on the processing

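Of all transcript clusters, 434 met the study's thresholds with all arrays. The count was 267 in the per-row analysis of variance, 224 among rows above the background level and 428 to 790 when each array was left out, with 790 without Cbl-b-/- replicate 2. At an adjusted p under 0.05, 1 passed, and 2 passed in the per-row test, with 1 to 2 when each array was left out (2 without WT replicate 3). Of the 93 other retinoid genes, 0 met the thresholds with all arrays and 0 to 5 when each was left out. The 5 without Cbl-b-/- replicate 2 were Rbp2, Rbp7, Cd36, Lipe and Aox3. Adh1 was the 1 without WT replicate 1, and Ttr, Tgm2 and Rarres1 were the 3 without WT replicate 3. Apart from Cd36, Adh1 and Rarres1, these genes were named after their values were seen. The cause was not tested. Cyclic loess and median centring moved no log2 difference of the 9 members by as much as the SD between replicates, but cyclic loess lowered the members without overlap from 3 to 2 (not Aldh1a3), and the median of all rows shifted by -0.03 and -0.01. With the replicate block, 453 transcript clusters met the thresholds. The deviations of same-numbered arrays correlated at 0.23, 0.09 and 0.25, and those of differently numbered arrays at -0.33 to 0.23. Each Cbl-b-/- array correlated best with the WT array of its own number, though replicate 1 hardly so (0.233, against 0.232 with WT replicate 2). WT replicate 2 correlated better with Cbl-b-/- replicate 1 than with replicate 2. Whether same-numbered arrays belong together was not tested, and the main fit did not take the numbers as pairs. The 9 members have 1 row each, so that averaging rows changed nothing. With all arrays, the standard error of a member's log2 difference was 0.09 to 0.53.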
